A study of Mus musculus with 4 samples.

Results

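The genes described here code for subunits and assembly factors of the respiratory chain and of ATP synthase in single cells of mouse thyroid glands. Members were taken by symbol alone, as every gene of the feature list named Nduf (a, b, c, s or v), Cox4 to Cox8, Atp5, Uqcr or Sdha to Sdhd, together with the mitochondrial genes mt-Nd, mt-Co, mt-Atp and mt-Cytb, and 107 of the 32285 genes listed matched. Of these, 13 are encoded by mitochondrial DNA and 94 by nuclear chromosomes. The nuclear set held 37 complex I subunits, 8 complex I assembly factors, 4 subunits of complex II, 8 genes of complex III, 20 of complex IV and 17 of ATP synthase (complex V). Thyroid tissue of C57BL/6 mice (C57 in the labels, with no further allele or treatment named) aged 5, 10, 20 or 30 days was digested with enzymes and cleared of dead cells, and a single droplet library of 3′ cDNA ends was made at each age from a pool of 10 mice, so ages had no replicate and no test across ages was possible. The libraries held 54921806 to 89039113 UMIs. Levels are UMIs (unique molecular identifiers, each marking a captured transcript) per 1000000 UMIs of a class in a library, written CPM. Each transcript is captured near its 3′ end, so levels were not divided by gene length.

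Electrons from nutrients enter the chain at complex I or complex II and pass through complex III to oxygen at complex IV, and the proton gradient so built drives ATP synthase. Complexes I, III, IV and V are mosaics of subunits made inside mitochondria and subunits imported from the cytosol, while complex II is nuclear-encoded throughout. Several complex IV subunits exist as a ubiquitous form and a tissue-restricted form, such as Cox6a1 and Cox6a2 (heart and skeletal muscle), Cox7a2 and Cox7a1 (muscle and brown fat), Cox4i1 and Cox4i2 (lung and vessel walls) or Ndufa4 and Ndufa4l2. Thyroid follicular cells (TFC) take up iodide and make the hydrogen peroxide needed for hormone synthesis.

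Cells were placed in classes by known markers with no respiratory chain gene among them, and 23114 cells were kept, of which 2060 fell in no class. The libraries labelled day 5, 10, 20 and 30 held 1751, 307, 115 and 217 TFC-like cells, 214, 101, 15 and 96 mural-like cells (pericytes and smooth muscle of vessels), 4194, 993, 395 and 402 endothelial-like cells, 1480, 580, 297 and 161 fibroblast-like cells, 896, 724, 193 and 224 macrophage-like cells, 720, 278, 3683 and 1170 T-like cells and 235, 288, 49 and 202 B-like cells. TFC-like cells carried a median of 7 of their markers in the day 5 library and 5 in the others, against a highest median of 1 for markers of any other class. The labels could not be taken as a check on age. H19, an imprinted RNA that is shut off after birth in most tissues, stood at 65.9, 529, 70.6 and 2009 CPM in fibroblast-like cells of day 5, 10, 20 and 30 by label, which does not follow their order and would fall throughout if the labels day 5 and day 30 were exchanged. The study's methods name day 30 as the age with the most cells. Here the library labelled day 5 held the most cells kept, 11210, and that of day 30 the fewest, 2899. For these reasons ages are named below by label only. Of the cell barcodes of the day 5 library, 33.6 to 49.9% also marked a droplet of another library, against 97.4 to 98.8% among the 3 others. This sets the day 5 library apart but does not bear on its age. The study's methods name a range of kit versions and do not give that of each library. The part of kit or handling in the differences of day 5 was not tested. In the libraries labelled day 20 and day 30 most T-like cells carried RNA of thymocytes, the immature T cells of the thymus, with the thymocyte genes summing to 2786 and 3440.2 CPM against 202 and 150.1 CPM at day 5 and day 10.

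Sequences show where counts of neighbouring members cannot be told apart and which promoter letters members share. In the mouse mitochondrial genome (GRCm38, GENCODE M21) the last 43 bases of mt-Atp8 are the first 43 of mt-Atp6, at chrM:7927-7969 on the plus strand, and a read within them fits both genes. The shared stretch is printed without capitals.
mt-Atp8 and mt-Atp6: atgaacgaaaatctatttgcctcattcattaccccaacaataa
mt-Nd4l and mt-Nd4 share 7 bases at chrM:10167-10173, and mt-Nd5 and mt-Nd6 lie on opposite strands and overlap. Among nuclear-encoded members, 75 of 94 had a promoter in the RefSeq table used (GRCm38.p6, 250 bases before to 50 after the start). The core motif of NRF1, a regulator of nuclear mitochondrial genes, was searched as GCGCATGCG on both strands and lay in 10 of the 75 promoters (13.3%), against 1.95% of 27025 genes. The ETS-type motif read by GABP, CCGGAAG on either strand, lay in 19 (25.3%), against 9.93% of genes. A match is a description of letters, not of binding. The promoters of 4 members (Uqcr11, Cox6a1, Atp5k and Atp5l) held both. Those of Uqcr11, a small complex III subunit, and Cox6a1, the ubiquitous form of a complex IV subunit, hold them at places that do not overlap and are shown because both genes are described below, with the motifs in capitals (in Cox6a1 the NRF1 letters match on both strands within the same run), on the minus strand at chr10:80406772-80407071 and chr5:115348909-115349208.
Uqcr11: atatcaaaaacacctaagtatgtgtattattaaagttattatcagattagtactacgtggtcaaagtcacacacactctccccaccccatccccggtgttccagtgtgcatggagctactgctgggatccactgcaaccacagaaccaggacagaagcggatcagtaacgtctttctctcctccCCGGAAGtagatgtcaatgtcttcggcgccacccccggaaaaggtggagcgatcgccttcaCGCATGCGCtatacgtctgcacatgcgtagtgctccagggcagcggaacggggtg
Cox6a1: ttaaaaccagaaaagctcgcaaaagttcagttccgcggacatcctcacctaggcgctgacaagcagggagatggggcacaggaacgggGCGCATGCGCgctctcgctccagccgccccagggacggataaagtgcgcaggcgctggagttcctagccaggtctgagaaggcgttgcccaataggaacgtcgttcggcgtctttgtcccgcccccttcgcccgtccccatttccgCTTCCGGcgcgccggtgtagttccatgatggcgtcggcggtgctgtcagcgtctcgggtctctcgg

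TFC-like cells carried more nuclear-encoded respiratory chain RNA than the 6 other classes fitted. The 94 nuclear-encoded members summed to 53235, 39067, 38666 and 37177 CPM (day 5, 10, 20 and 30, the order kept throughout), the highest of the 7 classes in all 4 libraries. Mural-like cells came next with 49649, 30308, 28034 and 27292 CPM, and B-like cells were lowest with 18954, 14215, 12672 and 14914 CPM. Mural-like cells with more smooth muscle markers held 52792, 35293, 34354 and 38539 CPM. In day 30, from 13 cells, they stood above TFC-like cells, with overlapping intervals. Those with more pericyte markers held 35618, 28416, 18319 and 24353 CPM. In day 20, from 8 cells, they stood below endothelial-like and T-like cells, with overlapping intervals. C cells, the calcitonin-secreting endocrine cells of the gland, numbered 58, 38, 19 and 42 and were not tested. They held 33345, 31595, 34004 and 37201 CPM, below TFC-like cells in the first 3 libraries and level with them in day 30. This order moved with the limits. With no mitochondrial limit C cells held 33451, 30445, 30330 and 36710 CPM against 52025, 35702, 29020 and 32593 CPM in TFC-like cells, above them in day 20 and day 30, and with no upper limit of UMIs 30803, 27287, 24531 and 28317 against 54122, 35112, 33807 and 31694 CPM, below them in all 4. C cell markers alone took 259640 to 299550 CPM of C cells, and TFC markers 28850 to 54597 CPM of TFC-like cells. This leaves a smaller part of C cell UMIs for other genes, and the order without marker UMIs was not tested. Each class was compared with the equally weighted mean of the 6 others in edgeR's quasi-likelihood test on UMI sums per class and library, with the library as a block and Benjamini-Hochberg adjustment over 12635 genes. The p-values rest on how class differences vary across 4 pooled libraries of different labelled ages. That spread is what the library block leaves, and the 28 sums of the 7 classes share 1 estimate of it. In all, 104 members passed the filter on low counts, 91 of them nuclear-encoded, and Cox7b2, Cox8b and Cox8c did not. Of the 91 nuclear-encoded members tested, 83 were higher in TFC-like cells and 2 were lower, against 30.7% of all genes higher and 24.3% lower. Their median log2 fold change was 0.83, beside -0.041 over all genes tested. Without each library in turn 75 to 80 were higher. Parathyroid genes summed to 417, 31.6, 48.7 and 33.9 CPM in TFC-like cells, and their part in the result was not tested.

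**Figure D1:**
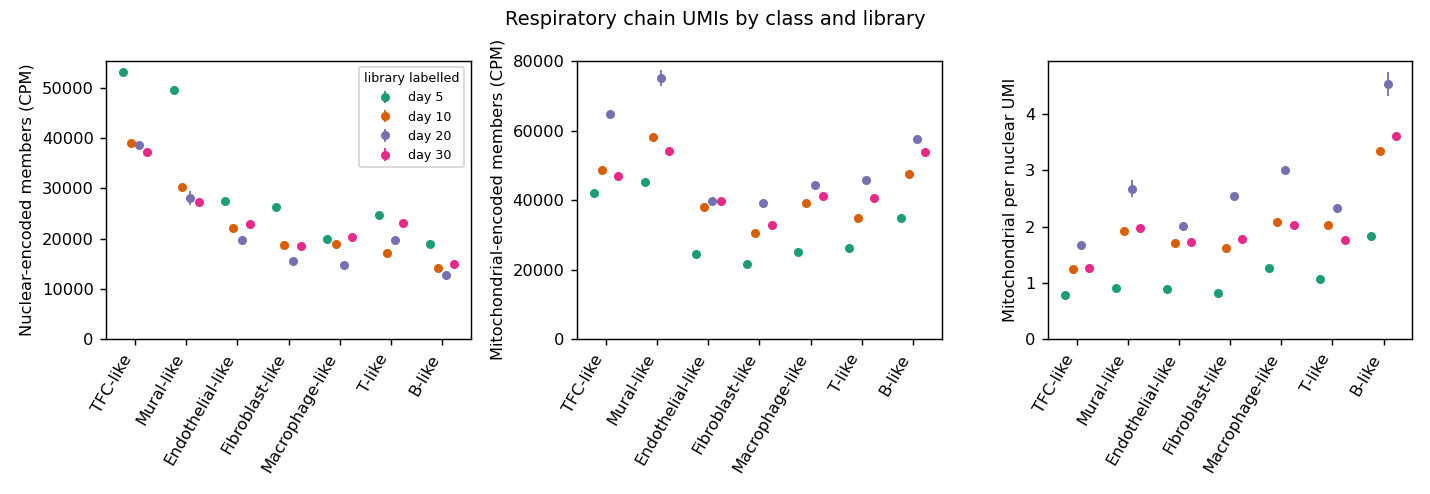
Summed nuclear-encoded members (left, CPM), summed mitochondrial-encoded members (middle, CPM) and their ratio (right) in the 7 fitted classes, with a point for each library coloured by its label and exact 95% intervals of counting error, mostly smaller than the points. TFC-like and mural-like cells stand highest at left, and the day 5 library has the lowest ratio in each class.

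The difference reached each complex. Higher in TFC-like cells were 36 of 37 complex I subunits, 3 of 4 of complex II, 7 of 8 of complex III, 14 of 17 of complex IV, 17 of 17 of complex V and 6 of 8 complex I assembly factors, with median log2 fold changes of 0.95, 0.57, 0.68, 1.04, 0.77 and 0.60 in that order. The largest differences outside the isoform families were in Ndufb8, Ndufa1 and Uqcr11. Ndufb8 (ENSMUSG00000025204, chr19:44548572-44555440), an accessory subunit of complex I, stood at 1402, 848, 866 and 672 CPM in TFC-like cells and at 112 to 603 CPM in the other 6 classes and 4 libraries, so the groups did not overlap (log2 fold change 1.95 ± 0.12 (SE), adjusted p = 2.51e-13, edgeR). Ndufa1 (ENSMUSG00000016427, chrX:37187588-37191163), an X-linked complex I subunit needed for its assembly, stood at 1117, 757, 627 and 526 CPM. In the other fitted classes Ndufa1 ranged from 88.7 to 483 CPM (log2 fold change 1.92 ± 0.10 (SE), adjusted p = 1.14e-14, edgeR). The Ndufa1 level of C cells was 1336, 1271, 1052 and 1294 CPM, above TFC-like cells in each library. Uqcr11 (ENSMUSG00000020163, chr10:80402997-80406830), the complex III subunit whose promoter is shown above, stood at 1417, 858, 724 and 647 CPM against 29.6 to 1124 CPM in the others (log2 fold change 1.77 ± 0.14 (SE), adjusted p = 2.23e-11, edgeR). Mural-like cells of the day 5 library, at 1124 CPM, lay above TFC-like cells of the other libraries, and within each library TFC-like cells were highest. Among the smallest increases outside the isoform families that held their direction in all 4 libraries were those of Ndufb7, an accessory subunit of complex I, and Sdhb, the iron-sulphur subunit of complex II, with log2 fold changes of 0.39 and 0.42 (adjusted p of 0.016 and 0.0047, edgeR). Both calls were lost without the day 10 library (adjusted p of 0.16 and 0.053), and that of Ndufb7 without day 20 (0.087). The 6 nuclear-encoded members that passed neither way were Ndufaf6, Ndufs1, Sdha, Cox7a2l, Uqcrh and Ndufaf4. Sdha, the catalytic subunit of complex II, had a log2 fold change of 0.14 (adjusted p = 0.39, edgeR), and of 0.37 (adjusted p = 0.0058) with no upper limit of UMIs, and Ndufs1, an iron-sulphur subunit of complex I, one of -0.059 (adjusted p = 0.83, edgeR).

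**Figure D2:**
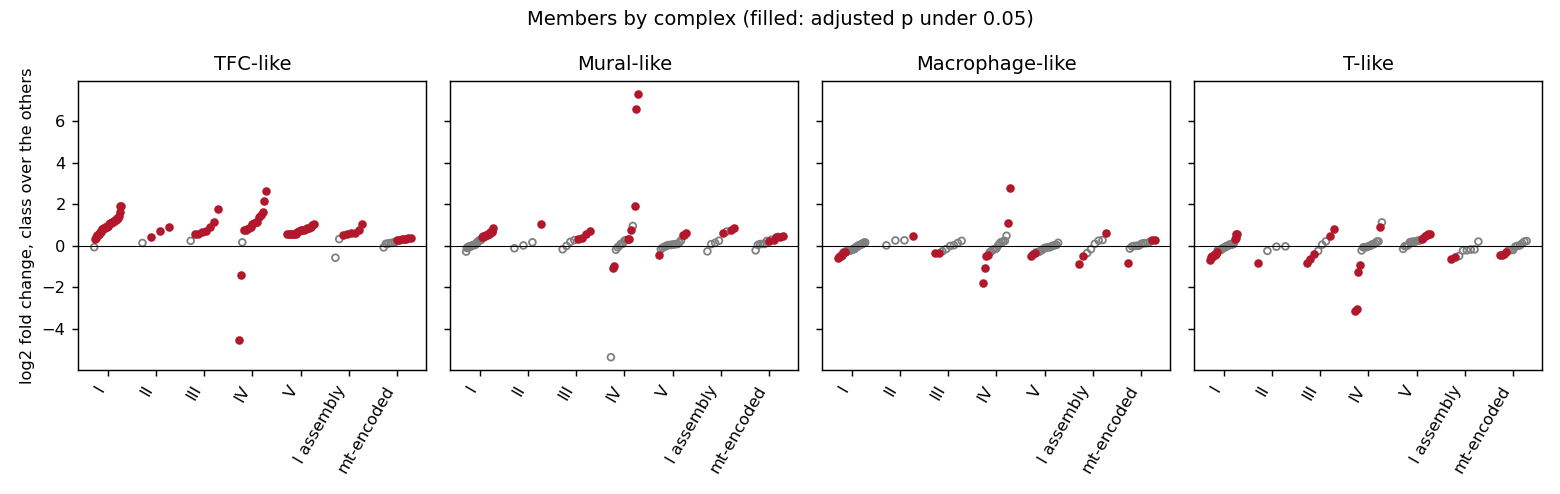
log2 fold change of each tested member in TFC-like, mural-like, macrophage-like and T-like cells over the mean of the other 6 classes, grouped by complex, with nuclear-encoded members in the first 6 columns and mitochondrial-encoded members in the last. Filled points passed the test and open grey points did not. Nearly all TFC-like points lie above 0, and the complex IV column holds the extremes in each panel.

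Mitochondrial-encoded members behaved less evenly. They summed to 42024, 48517, 64799 and 46804 CPM in TFC-like cells. Of the 13, 7 were higher than in the other classes and 0 lower, against 30.7% of all genes higher and 24.3% lower. Their median log2 fold change was 0.27, beside -0.041 over all genes tested. Those higher were mt-Cytb (complex III), mt-Co1 and mt-Co3 (catalytic core of complex IV) and mt-Nd1, mt-Nd4, mt-Nd4l and mt-Nd5 (membrane arm of complex I). mt-Cytb had the largest value, a log2 fold change of 0.41 ± 0.11 (SE, adjusted p = 0.0021, edgeR), and mt-Nd6, mt-Atp8, mt-Atp6, mt-Nd2, mt-Co2 and mt-Nd3 did not pass. Without the day 10 library 2 passed and without the day 20 library 2. These 13 genes are also all 13 mitochondrial genes of the feature list, so the study's limit of 10% mitochondrial UMIs a cell caps the very quantity reported. It fell unevenly on the classes. Among TFC-like cells 17.8%, 37.8%, 66.2% and 34.7% were over the limit in the libraries labelled day 5, 10, 20 and 30, among mural-like cells 7.69%, 23.8%, 58.3% and 17.4%, among endothelial-like cells 5.05%, 19.8%, 21.8% and 29.2%, among macrophage-like cells 3.03%, 6.09%, 9.35% and 7.60% and among T-like cells 1.90%, 1.06%, 4.66% and 3.12%. With no such limit the mitochondrial-encoded sum in TFC-like cells was 51222, 101070, 184210 and 113870 CPM, and all 13 members were higher in TFC-like cells. With a limit of 5%, 0 were, and the log2 fold changes of the 7 members turned to between -0.28 and -0.065. The shares of all genes called under these changed limits are not given here. Free RNA, read from droplets with 10 to 100 UMIs and no mitochondrial limit, held 172170, 244490, 204860 and 167830 CPM of mitochondrial-encoded members, above TFC-like cells with no limit in each library. The part of free RNA or of damaged cells in the uncapped values was not tested. The nuclear-encoded count of members higher in TFC-like cells was 78 with no limit and 79 at 5%.

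**Figure D3:**
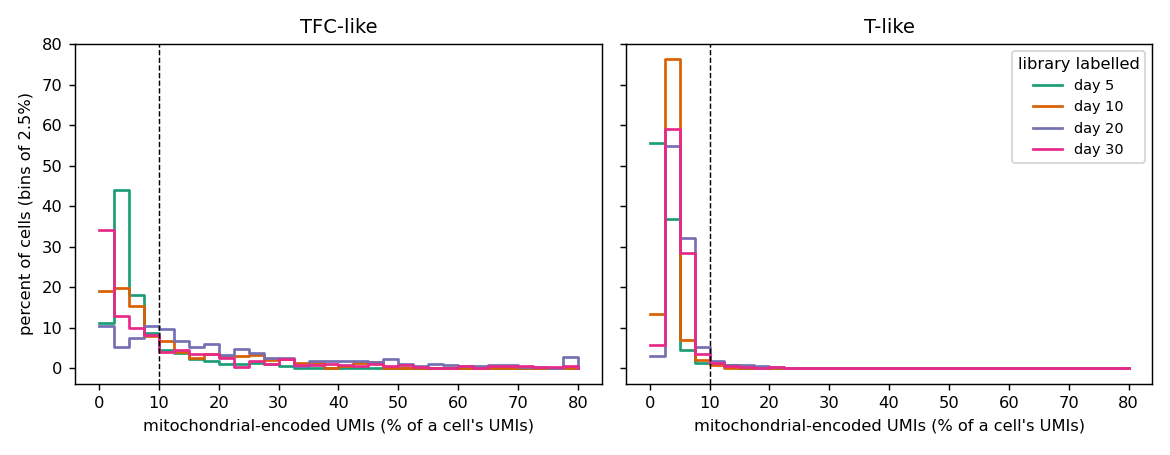
Share of TFC-like cells (left) and T-like cells (right) by the percent of their UMIs from mitochondrial-encoded members, in bins of 2.5%, for each library before the limit, with 10% as a dashed line. The last bin also holds cells over 80%. T-like cells mostly sit below the line, while TFC-like cells reach far beyond it, most of all in the day 20 library.

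The balance between the 2 genomes differed by class and by library. TFC-like cells had 0.789, 1.24, 1.68 and 1.26 mitochondrial-encoded UMIs per nuclear-encoded member UMI, the lowest of the 7 fitted classes in each library. B-like cells were highest in each library with 1.83, 3.34, 4.53 and 3.62, and macrophage-like cells stood at 1.27, 2.08, 3.01 and 2.03. Between those, mural-like cells had 0.909, 1.92, 2.68 and 1.98, T-like cells 1.07, 2.03, 2.33 and 1.76, endothelial-like cells 0.894, 1.71, 2.01 and 1.73 and fibroblast-like cells 0.824, 1.63, 2.54 and 1.77. The day 5 library had the lowest ratio and the day 20 library the highest in all 7 classes, but with cells over 10000 UMIs kept T-like cells had 1.06, 1.92, 1.42 and 1.43, highest in day 10. Exact intervals cover counting error only, as for fibroblast-like cells of the day 5 library (0.818 to 0.830) against TFC-like cells there (0.786 to 0.793), and polymerase copies that escape UMI correction are not covered. With no upper limit of UMIs the TFC-like ratio was 0.661, 1.27, 2.13 and 1.55, the lowest of the 7 classes in day 5 and day 10 only. With no mitochondrial limit it was 0.985, 2.83, 6.35 and 3.49, the lowest in no library and the highest in day 20, where B-like cells had 5.15. Free RNA had 4.30, 12.03, 8.80 and 7.56 mitochondrial-encoded UMIs per nuclear-encoded member UMI and 40076, 20333, 23292 and 22209 CPM of nuclear-encoded members.

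Counts of overlapping mitochondrial genes differed more between libraries than between classes. mt-Atp8 and mt-Atp6, both membrane subunits of ATP synthase, lie on a shared transcript, as do mt-Nd4l and mt-Nd4. For each 100 mt-Atp6 UMIs the 7 classes had 4.51 to 5.54 mt-Atp8 UMIs in the day 5 library, 2.07 to 2.68 in day 10, 0.698 to 1.30 in day 20 and 0.832 to 1.23 in day 30. Free RNA gave 6.02, 2.27, 0.991 and 1.04. For each 100 mt-Nd4 UMIs the classes had 44.8 to 53.01, 27.7 to 36.8, 14.4 to 20.4 and 15.2 to 21.7 mt-Nd4l UMIs, and free RNA 49.6, 32.1, 14.9 and 17.8. The ranges of the day 5 and day 10 libraries overlapped with no other library, and those of day 20 and day 30 overlapped with each other. In TFC-like cells mt-Nd4l went from 1729 CPM in day 5 to 415 CPM in day 30, while mt-Atp6 went from 6767 to 11387 CPM and mt-Co3 from 4977 to 7919 CPM. Library and labelled age cannot be told apart here.

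**Figure D4:**
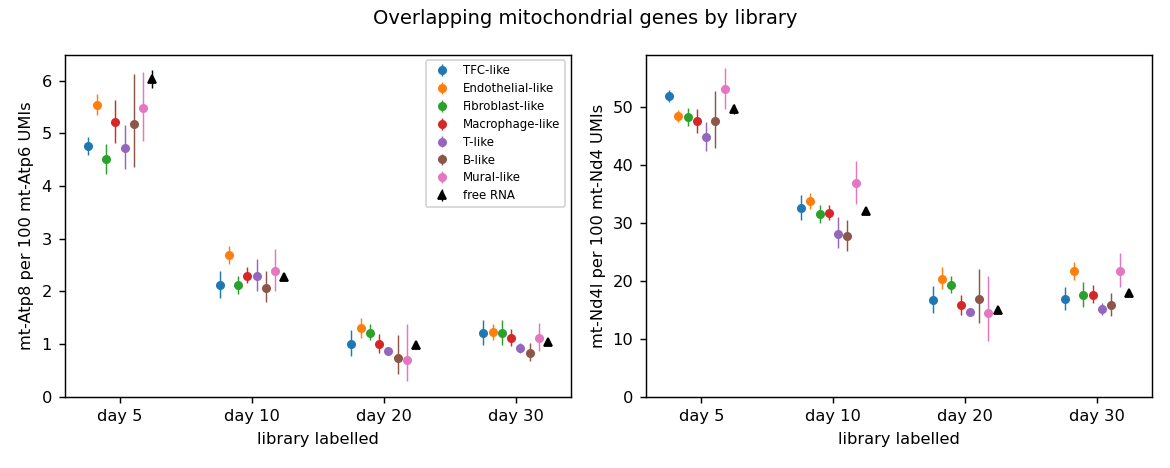
mt-Atp8 UMIs per 100 mt-Atp6 UMIs (left) and mt-Nd4l UMIs per 100 mt-Nd4 UMIs (right) by library, with a point for each of the 7 fitted classes, a black triangle for free RNA and exact 95% intervals of counting error. Points of a library lie together, highest in day 5 and lowest in day 20 and day 30.

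The largest differences between mural-like cells and the other classes lay in 2 alternative complex IV isoforms. Ndufa4l2 (ENSMUSG00000040280, chr10:127514967-127517154), a hypoxia-responsive relative of the complex IV subunit Ndufa4, stood at 838, 1173, 1132 and 1177 CPM in mural-like cells, at 191, 209, 147 and 149 CPM in fibroblast-like cells and at 0 to 20.1 CPM in the 5 others. Mural-like cells lay above every other class in every library (log2 fold change 7.31 ± 0.22 (SE), adjusted p = 7.99e-20, edgeR). Cox4i2 (ENSMUSG00000009876, chr2:152754173-152765037), the alternative form of Cox4i1 that tunes complex IV to low oxygen, stood at 374, 521, 394 and 369.5 CPM in mural-like cells against 0 to 33.8 CPM elsewhere (log2 fold change 6.60 ± 0.19 (SE), adjusted p = 4.03e-20, edgeR). Ndufa4 itself (ENSMUSG00000029632, chr6:11900292-11907497) stood at 996, 253, 189 and 145 CPM in mural-like cells and was lower there (log2 fold change -0.98 ± 0.24 (SE), adjusted p = 0.0018, edgeR), though in the day 5 library its 996 CPM lay within the 386 to 1838 CPM of the others. Its call was lost in the fit with no library block (adjusted p = 0.22). Cox4i1 was at 1064, 757, 1080.2 and 895 CPM (log2 fold change -0.062, adjusted p = 0.75, edgeR). Of the Ndufa4 and Ndufa4l2 UMIs together, Ndufa4l2 made up 45.7%, 82.2%, 85.7% and 89.02% in mural-like cells, 22.04%, 31.5%, 29.99% and 25.8% in fibroblast-like cells and 1.99%, 1.04%, 0.592% and 0.548% in endothelial-like cells. The mural-like sum of the day 20 library held 15 cells, fewer than the 20 asked of other sums. Without it the log2 fold changes of Ndufa4l2 and Cox4i2 were 7.19 and 6.49.

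Within mural-like cells the use of Ndufa4l2 differed between cells with more pericyte markers and cells with more smooth muscle markers. There were 68, 76, 8 and 81 pericyte-side and 122, 14, 5 and 13 smooth-muscle-side cells in the 4 libraries, so the day 5 class was mostly smooth muscle and those of day 10 and day 30 mostly pericyte. Cell division genes summed to 3.17, 103, 0 and 630.1 CPM in mural-like cells. On the pericyte side Ndufa4 stood at 287, 60.97, 46.03 and 35.5 CPM and Ndufa4l2 at 1624, 1463, 1059 and 1243 CPM, and Ndufa4l2 was 85%, 96%, 95.8% and 97.2% of the pair. On the smooth muscle side Ndufa4 stood at 1232, 766, 373 and 556 CPM and Ndufa4l2 at 477, 574, 819.7 and 892 CPM, and Ndufa4l2 was 27.9% (95% interval 24.8 to 31.2), 42.9% (95% interval 33.2 to 52.9), 68.8% (95% interval 49.99 to 83.9) and 61.6% (95% interval 52.5 to 70.2) of the pair. The pericyte side had a larger share than the smooth muscle side in each of the 4 libraries. The 24, 11, 2 and 2 cells with as many markers of one as of the other had shares of 85.6%, 64%, 100% and 73.1%, above the pericyte side in day 5 and day 20 and between the sides in day 10 and day 30. In day 20 the interval of the pericyte side, 78.9 to 99.9%, overlapped with that of the smooth muscle side. Cox4i2 was 41.9%, 48.8%, 39.3% and 34.2% of the Cox4i1 and Cox4i2 UMIs on the pericyte side and 20.1%, 25.2%, 14.3% and 14.1% on the smooth muscle side, so Cox4i1 kept the larger count on both sides. A UMI of Ndufa4l2 was found in 64.95%, 87.1%, 93.3% and 85.4% of mural-like cells and in 42.6%, 54.5%, 47.8% and 38.5% of fibroblast-like cells, against 1.25%, 0.360%, 0.109% and 0.427% of T-like cells, read here as the background. Thinned to 1000 UMIs a cell, the shares were 50%, 64.6%, 66.7% and 60.9% of mural-like, 17.96%, 18.1%, 13.6% and 11.3% of fibroblast-like and 0.420%, 0.361%, 0.0552% and 0.0861% of T-like cells. The range of median depth was 2809.5 to 4961 UMIs in mural-like, 4115 to 7428 in fibroblast-like and 2383 to 3792 in T-like cells. In fibroblast-like cells Ndufa4l2 was 22.04%, 31.5%, 29.99% and 25.8% of the pair, and mural markers summed to 418 to 1140.1 CPM there against 20267 to 35881 CPM in mural-like cells. The part of mural RNA in that share was not tested.

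**Figure D5:**
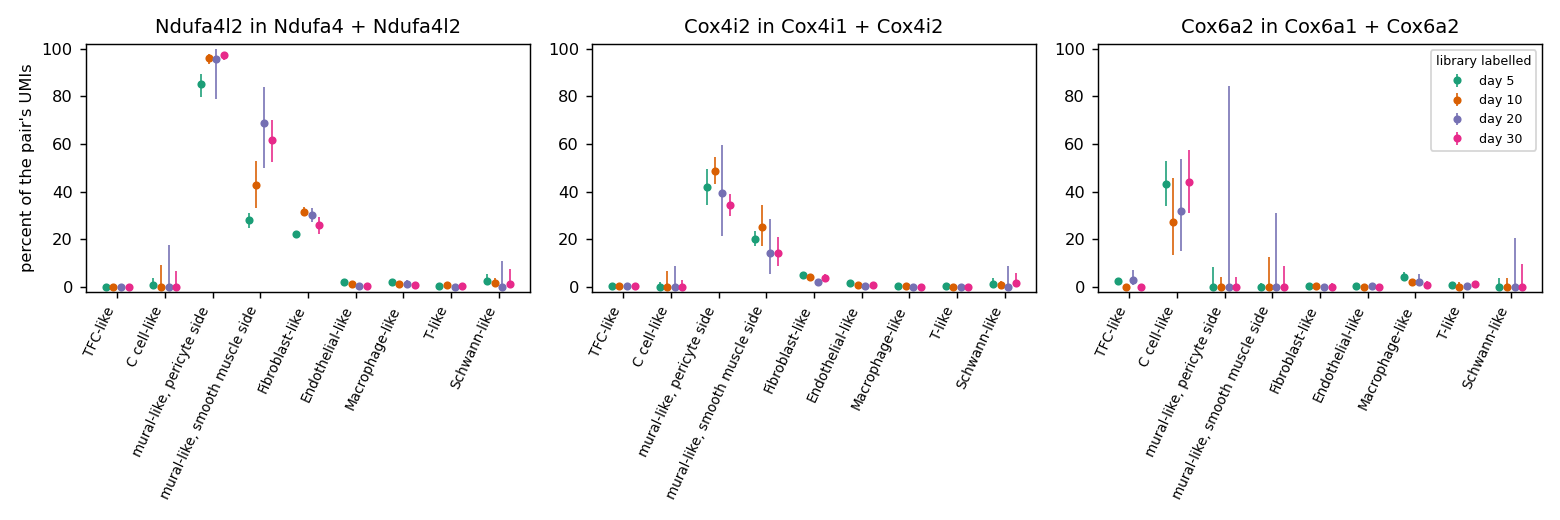
Percent of the second isoform among the UMIs of a pair, for Ndufa4l2 (left), Cox4i2 (middle) and Cox6a2 (right), by class and library, with exact 95% intervals of counting error. Among the groups drawn, pericyte-side mural-like cells stand highest for Ndufa4l2 and Cox4i2, and C cells for Cox6a2. Mural-like cells with as many markers of one side as of the other are not drawn.

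In mural-like cells 33 of 91 nuclear-encoded members were higher and 3 lower, against 20.2% and 16.7% of all genes, with a median log2 fold change of 0.20 beside -0.088 over all genes. Those higher included 16 of 37 subunits of complex I, 4 of 8 of complex III and 3 of 17 of complex V, the last no larger a share than that of all genes. Without the day 5 library 18 were higher, and with a mitochondrial limit of 5%, 7. The shares of all genes called in those fits are not given here. The pericyte and smooth muscle sides were not tested apart. Of the mitochondrial-encoded members 5 were higher (mt-Cytb, mt-Nd2, mt-Nd4, mt-Nd4l and mt-Atp6), and 4, 1, 5 and 4 without the day 5, 10, 20 or 30 library. At the 5% limit none was, and mt-Cytb, mt-Nd2, mt-Nd4 and mt-Atp6 turned to log2 fold changes below 0 (-0.12, -0.18, -0.20 and -0.37). The 3 lower members were Ndufa4, Cox7a2l and Atp5e, the epsilon subunit of ATP synthase. Cox7a2l was lower in mural-like cells at 149, 148, 206 and 192 CPM (log2 fold change -1.07 ± 0.16 (SE), adjusted p = 2.83e-06, edgeR). Cox8a, a small complex IV subunit, was higher (log2 fold change 0.76 ± 0.10 (SE), adjusted p = 9.80e-07, edgeR), as was Cox7a2 (log2 fold change 0.35, adjusted p = 0.026, edgeR), whose call was lost without the day 5 library (adjusted p = 0.17) or the day 10 library (adjusted p = 0.11). Outside the isoform families the largest increases were in Sdhc, a membrane anchor of complex II, at 143, 108, 240.1 and 117 CPM (log2 fold change 1.04 ± 0.20 (SE), adjusted p = 1.20e-04, edgeR), in the complex I subunit Ndufa5 (log2 fold change 0.88, adjusted p = 3.67e-06, edgeR) and in the assembly factor Ndufaf5 (log2 fold change 0.87, adjusted p = 0.032, edgeR), which rested on 13, 4, 1 and 4 UMIs and was lost without the day 5 or the day 30 library (adjusted p = 0.38 and 0.081). The smallest increases outside the isoform families and subunit c that held their direction in all 4 libraries were in Ndufa12 and Ndufb3 of complex I and Uqcrb of complex III, with log2 fold changes of 0.42, 0.49 and 0.58 (adjusted p of 0.025, 0.0011 and 6.14e-04, edgeR), and Ndufa12 did not pass without the day 5, 10 or 30 library (adjusted p of 0.26, 0.073 and 0.055).

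C cells stood apart by Cox6a2 (ENSMUSG00000030785, chr7:128205435-128206387), known as the heart and skeletal muscle form of a regulatory complex IV subunit. It stood at 185, 96.95, 159 and 244 CPM in C cells, from 49, 9, 8 and 26 UMIs, and at 0 to 11.1 CPM in the 7 fitted classes, so C cells were above every fitted class in every library. It made up 43.4%, 27.3%, 32% and 44.1% of Cox6a1 and Cox6a2 UMIs in C cells. A UMI was found in 31.03%, 21.1%, 26.3% and 33.3% of C cells and in 0.238%, 0.201%, 0.253% and 0% of endothelial-like cells. The shares were 4.80%, 0%, 3.48% and 0% in TFC-like, 1.79%, 2.49%, 1.55% and 0.893% in macrophage-like and 0.417%, 0%, 0.217% and 1.20% in T-like cells, and free RNA held 10.96, 5.67, 5.84 and 2.79 CPM. Thinned to 1000 UMIs, the shares were 16%, 4.17%, 11.8% and 20% of C cells and 0.0809%, 0.106%, 0% and 0% of endothelial-like cells. Skeletal muscle genes summed to 10.8 to 28.1 CPM in C cells, with 4 of 6 at 0. In TFC-like cells Cox6a2 gave 108, 0, 5 and 0 UMIs (11.1, 0, 11.1 and 0 CPM), higher than the mean of the other classes in 2 of 4 libraries (log2 fold change 2.63 ± 0.74 (SE), adjusted p = 0.0043, edgeR). The call was lost in DESeq2 (adjusted p = 0.050) and with classes from clustering (log2 fold change 1.53, adjusted p = 0.069). In day 5 its level was 11.9 CPM in the 1503 TFC-like cells with under 5 UMIs of the C cell markers and 7.63 CPM in the 248 with 5 or more, and none of its 108 UMIs was in the 10 cells with 5 or more parathyroid UMIs.

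Other tissue-restricted isoforms were low but not evenly so. Cox7a1, the muscle and brown fat form of Cox7a2, stood at 18.98, 18.7, 19.9 and 11.3 CPM in TFC-like cells against 0 to 17.4 CPM in the other fitted classes (log2 fold change 2.16 ± 0.27 (SE), adjusted p = 1.20e-07, edgeR), and was 1.43%, 2.19%, 2.21% and 1.49% of the pair. Schwann-like cells, which were too few to test, had 80, 66.9, 18.7 and 15.95 CPM from 25, 27, 1 and 2 UMIs. Free RNA held 17.1, 42.8, 10.3 and 5.93 CPM of Cox7a1. Brown fat genes summed to 0 to 1.62 CPM in TFC-like cells with 2 of 5 at 0, and skeletal muscle genes to 2.51 to 8.86 CPM. Cox6b2, known from testis, was higher in TFC-like cells at 27.2, 26.8, 35.4 and 54.01 CPM (log2 fold change 1.64 ± 0.22 (SE), adjusted p = 4.22e-07, edgeR) and in mural-like cells at 49.1, 39.3, 51.4 and 53.4 CPM (log2 fold change 1.92 ± 0.27 (SE), adjusted p = 1.28e-06, edgeR), and fibroblast-like cells held 26.98, 42.2, 27.3 and 38.9 CPM. Its share of the pair was 2.10%, 2.90%, 4.27% and 6.10% in TFC-like and 4.62%, 10.4%, 8.59% and 11.2% in fibroblast-like cells. The ubiquitous forms made up nearly all UMIs in TFC-like cells and were higher there. Cox8a stood at 2746, 1688, 1836 and 1589 CPM (log2 fold change 1.09 ± 0.099 (SE), adjusted p = 4.44e-10, edgeR) and Ndufa4 at 1838, 1210.1, 1192 and 1051 CPM (log2 fold change 1.51 ± 0.19 (SE), adjusted p = 1.04e-07, edgeR), and Cox4i1, Cox6a1, Cox6b1, Cox7a2 and Cox7b had log2 fold changes of 0.78, 0.80, 1.04, 1.15 and 1.14. Ndufa4l2 and Cox4i2 were lower in TFC-like cells than the mean of the others, which holds mural-like cells, with log2 fold changes of -4.54 and -1.42, from 11, 2, 0 and 0 and 25, 4, 2 and 5 UMIs. Without the day 5 library the Cox4i2 call was lost (log2 fold change -0.65, adjusted p = 0.21, edgeR). Cox7b2 gave no UMI in any of the 7 fitted classes, Cox8c at most 1 and Cox8b, a brown fat and heart form, at most 13 in a class and library, while free RNA held 5.48, 48.2, 35.5 and 5.24 CPM of Cox8b and 6.85, 37.9, 5.84 and 12.2 CPM of the brown fat uncoupling protein Ucp1. Counts of 0 for Cox7b2 allow up to 0.308 CPM in TFC-like cells of day 5 and up to 6.64 CPM in those of day 20 (3 counts per library).

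Atp5g1, Atp5g2 and Atp5g3 code for the same mature c-ring subunit of ATP synthase with different import sequences. Pseudogene copies can take some of their reads. Atp5g2 held the largest share in TFC-like cells with 38.9%, 44.5%, 47.2% and 46.02% of the 3 genes' UMIs, and Atp5g1 held 33.8%, 30.4%, 30.1% and 28.4%. In fibroblast-like cells Atp5g1 held 40.6%, 34.1%, 34.8% and 35.8% and Atp5g2 36.6%, 38.8%, 42.03% and 35.6%, and in macrophage-like cells Atp5g2 held 53.8%, 53.4%, 54.9% and 51.2%. T-like cells of the day 20 library, mostly thymocytes, had 35.4% Atp5g3 against 21.1% in day 5. All 3 were higher in TFC-like cells than in the other classes, with log2 fold changes of 1.05 ± 0.11, 0.77 ± 0.11 and 0.90 ± 0.12 (SE, adjusted p of 9.90e-09, 9.56e-07 and 4.17e-07, edgeR).

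Macrophage-like cells had few members above the other classes. In them 4 of 91 nuclear-encoded members were higher and 19 lower, against 25.7% and 18.9% of all genes, so the lower share, 20.9%, was near the background and the higher share, 4.40%, below it. The median log2 fold change was -0.15 beside -0.060 over all genes. Without the day 5, 10, 20 or 30 library 12, 5, 11 and 10 were lower. Outside the isoform families the largest decreases were in the assembly factor Ndufaf4 (log2 fold change -0.89 ± 0.20 (SE), adjusted p = 7.26e-04, edgeR), in Ndufs4 (log2 fold change -0.59, adjusted p = 0.0023, edgeR) and in Ndufb11 (log2 fold change -0.55, adjusted p = 0.0012, edgeR), both complex I subunits. Higher were Sdhd, a membrane anchor of complex II, at 77.6, 89.2, 93.6 and 117 CPM (log2 fold change 0.50 ± 0.12 (SE), adjusted p = 0.0016, edgeR), and Ndufaf7, a methyltransferase that helps assemble complex I (log2 fold change 0.64 ± 0.19 (SE), adjusted p = 0.0063, edgeR). The calls of Cox6a2 and Cox7a1 in macrophage-like cells (log2 fold changes 2.77 and 1.09) rested on 23, 18, 3 and 2 and 35, 38, 3 and 9 UMIs, and their levels, 7.60, 4.16, 2.78 and 1.32 and 11.6, 8.78, 2.78 and 5.93 CPM, were below those of free RNA in every library. Cox4i2 and Ndufa4l2 were lower, with log2 fold changes of -1.79 and -1.05 (adjusted p of 3.07e-04 and 0.025, edgeR). Of the mitochondrial-encoded members mt-Nd1 and mt-Nd3 were higher, with log2 fold changes of 0.26 and 0.30, and mt-Nd6 was lower at -0.82. Without day 5, 10, 20 or 30 the higher count was 1, 0, 2 and 1 and the lower 1, 0, 0 and 1.

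In T-like cells 13 of 91 nuclear-encoded members were higher and 20 lower, against 32.7% and 25.2% of all genes, and 4 of 13 mitochondrial-encoded members (mt-Nd1, mt-Nd2, mt-Nd3 and mt-Nd4l, all of complex I) were lower. Leaving out the day 10 library left 8 nuclear-encoded members lower, day 5 13 and day 30 12, and no mitochondrial-encoded member was lower without day 10 or day 30 (log2 fold changes of mt-Nd4l then -0.34 and -0.30). The split was 9 nuclear-encoded members higher and 34 lower with RLE in place of TMM normalization and 9 and 46 in DESeq2, and it turned to 26 higher and 6 lower with no upper limit of UMIs. The shares of all genes called in these other fits are not given here. By complex, of ATP synthase 6 of 17 subunits were higher and 0 lower, while of 37 complex I subunits 4 were higher and 10 lower, shares near those of all genes for ATP synthase higher and for complex I lower, and the difference between complexes was not tested. Outside the isoform families the largest increases were in Uqcrh, the hinge subunit of complex III, at 825, 781, 963 and 999 CPM (log2 fold change 0.82 ± 0.12 (SE), adjusted p = 1.58e-06, edgeR), Atp5md, a membrane subunit of ATP synthase (log2 fold change 0.60, adjusted p = 2.77e-04, edgeR), and Atp5h, of its peripheral stalk (log2 fold change 0.59, adjusted p = 2.05e-04, edgeR). Cox7a2l was also higher (log2 fold change 0.93 ± 0.12 (SE), adjusted p = 2.76e-07, edgeR). Ndufa4l2 and Cox4i2 were lower than the mean of the others, which holds mural-like cells, at log2 fold changes of -3.15 and -3.03 (adjusted p of 1.37e-06 and 7.87e-07, edgeR). Of the other isoforms Cox6b2 and Cox7a1 were lower too, at -1.24 and -0.90 (adjusted p of 3.48e-04 and 0.023, edgeR). Outside the isoform families the largest decreases were in Sdhc at 31.3, 28.04, 30.7 and 39.4 CPM (log2 fold change -0.82 ± 0.19 (SE), adjusted p = 6.62e-04, edgeR), Uqcrb of complex III at 331, 127, 217 and 152 CPM (log2 fold change -0.80 ± 0.14 (SE), adjusted p = 1.70e-05, edgeR) and Ndufa5 of complex I (log2 fold change -0.66, adjusted p = 1.39e-04, edgeR). Uqcrb and Uqcrh, both of complex III, thus went opposite ways in T-like cells, while in TFC-like cells Uqcrb was higher (log2 fold change 0.92, adjusted p = 2.96e-07, edgeR) and Uqcrh did not pass (adjusted p = 0.098, edgeR), though it did without the day 5 library (adjusted p = 0.047) and in DESeq2 (adjusted p = 0.014). T-like cells with at least 2 of 5 thymocyte genes, 2853 in day 20 and 1018 in day 30, held 20122 and 24042 CPM of nuclear-encoded members. T-like cells with no UMI of those genes, 307 and 89 in the same libraries, held 17261 and 18145 CPM, and those of day 5 and day 10 24367 and 17293 CPM. Cell division genes summed to 158, 44.3, 352 and 1464 CPM in T-like cells, and their part was not tested. B-like cells, for which no comparison was planned, held 18954, 14215, 12672 and 14914 CPM of nuclear-encoded and 34735, 47424, 57460 and 53924 CPM of mitochondrial-encoded members.

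Genes upstream and downstream of the chain were read from lists of pathway genes. The list for the TCA cycle, which supplies electrons to the chain, also holds pyruvate dehydrogenase genes (Pdha1, Pdhb and Dlat) and the cytosolic Mdh1. Of its 18 genes TFC-like cells held 12 at a higher level and 0 at a lower one (median log2 fold change 0.46). Mdh2, the malate dehydrogenase of the cycle, was the most changed at 613, 499, 509 and 572 CPM (log2 fold change 1.70 ± 0.11 (SE), adjusted p = 9.73e-13, edgeR). Of 27 tested genes for cytochrome c, carriers and assembly of complexes II to IV, 18 were higher and 0 lower. They were led by the copper chaperone Sco2 (log2 fold change 1.61 ± 0.19 (SE), adjusted p = 4.97e-08, edgeR). Cox16, an assembly factor of complex IV, was the least changed of those called (log2 fold change 0.32 ± 0.13 (SE), adjusted p = 0.035, edgeR). The Cox16 call was lost without the day 10, 20 or 30 library (adjusted p of 0.14, 0.18 and 0.19). Of glycolysis genes 12 of 16 were higher and 2 lower (median log2 fold change 0.55). Ldhb, the heart-type lactate dehydrogenase subunit, was higher at 490.5, 256, 394 and 264 CPM (log2 fold change 2.94 ± 0.40 (SE), adjusted p = 4.96e-07, edgeR), and Hk2, an inducible hexokinase, lower at 3.08, 2.43, 6.64 and 8.79 CPM (log2 fold change -2.42 ± 0.52 (SE), adjusted p = 2.95e-04, edgeR). Of 14 genes of biogenesis and mitochondrial transcription 4 were higher and 3 lower, shares close to the 30.7% and 24.3% of all genes in TFC-like cells. Ppargc1a (PGC-1α), a coactivator of mitochondrial biogenesis, stood at 26.3, 22.7, 62.02 and 12.6 CPM (log2 fold change 4.26 ± 0.34 (SE), adjusted p = 2.48e-11, edgeR), and Nrf1, the factor whose motif was searched above, was lower at 13.6, 12.2, 8.86 and 21.4 CPM (log2 fold change -0.96 ± 0.26 (SE), adjusted p = 0.0033, edgeR). In mural-like cells, where 20.2% of all genes were higher and 16.7% lower, 8 of 18 genes on the TCA cycle list were higher and 0 lower, 4 and 1 of 16 glycolysis genes, 3 and 4 of 27 on the cytochrome c and assembly list and 2 and 1 of 14 on the biogenesis list. In macrophage-like cells, with 25.7% and 18.9% of all genes, the same lists had 1 and 6, 6 and 4, 1 and 6, and 3 and 3. In T-like cells, with 32.7% and 25.2% of all genes, they had 4 and 5, 10 and 1, 8 and 6, and 4 and 3.

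The nuclear-encoded sum of TFC-like cells was lower in the day 30 library than in that of day 5. In day 30 the class also held fewer cells, which were shallower under the limit of 10000 UMIs and deeper without it. Of 80 nuclear-encoded members with a mean of at least 50 CPM, 30 were at least 1.5-fold lower and 2 at least 1.5-fold higher, against 8.88% and 9.84% of 2918 genes. These are single libraries, and the difference has no replicate check. Exchanging the labels day 5 and day 30, whose order H19 and the cell counts do not follow, would turn the sign of each ratio, and no direction with age is read from them. The cells compared also differed. TFC-like cells had a median of 6128 UMIs in day 5 and 2326 in day 30, from 1751 and 217 cells. With no upper limit of UMIs the medians were 7816 and 13388, from 2679 and 636 cells. The TFC clusters, numbered 9 and 10, held 493 and 1462 cells in day 5 and 217 and 78 in day 30. Among TFC-like cells of 200 to 1000 UMIs the nuclear-encoded sum was 55629 CPM in day 5 (131 cells) and 47580 CPM in day 30 (45 cells). It was 49784 and 47743 CPM at 1000 to 3000 UMIs and 50444 and 37396 CPM at 3000 to 6000 UMIs. At 6000 to 10000 UMIs it was 54061 and 32667 CPM. Among these ranges the gap was smallest at 1000 to 3000 UMIs and widest at 6000 to 10000 UMIs. The lowest log2 ratios were those of mt-Nd4l (-2.06) and, among nuclear-encoded members, Ndufa3 (-1.18), Ndufa5 (-1.18) and Uqcr11 (-1.13), and the highest nuclear-encoded ones those of Cox7a2l (0.94), Ndufa9 (0.63) and Atp5b (0.37). The median log2 ratio of nuclear-encoded members was -0.49, -0.82, -0.29, -0.51, 0.076, -0.052 and -0.44 in TFC-like, mural-like, endothelial-like, fibroblast-like, macrophage-like, T-like and B-like cells, beside 0.0076, 0.21, 0.0056, 0.058, 0.29, 0.35 and 0.068 for all genes, so it lay under that of all genes in each class. Other classes too were made up of different clusters in the pair of libraries, such as the endothelial clusters 0 and 2 with 1509 and 1294 cells in day 5 and 2 and 1 in day 30, or the fibroblast cluster 6 with 1267 and 7, and the part of this in the ratios was not tested. The difference between the day 5 library and the rest was also in free RNA, at 40076 CPM of nuclear-encoded members in day 5 and 20333 to 23292 CPM in the others. Day 30 against day 10 gave a log2 ratio of -0.072 for the nuclear-encoded sum in TFC-like cells and day 20 against day 10 one of -0.015, against -0.52 (exact 95% interval -0.53 to -0.50, counting error only) for day 30 against day 5. For the mitochondrial-encoded sum the log2 ratio of day 30 to day 5 was 0.16 in TFC-like cells, 1.15 with no mitochondrial limit and -0.50 with a limit of 5%, so its direction rested on the limit. In the 6 other classes it was 0.26, 0.69, 0.59, 0.72, 0.63 and 0.63, in the order above.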

How the data were processed

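Single-cell 3′ RNA was read in 4 droplet libraries of mouse thyroid. The deposited matrices hold raw UMI counts per gene and droplet, which the authors made with Cell Ranger on mm10 (the methods name v3.0.1, the matrix headers a later version), without normalization and with empty droplets kept. Cells were the barcodes of the authors' table of all cells, each taken from the matrix where it had the most UMIs. The submitters' processing notes name Seurat 3.1.4 and 3.6.3. Cells were kept at 200 to 10000 UMIs, at most 10% mitochondrial and at most 5% haemoglobin UMIs, and the top 6% of Scrublet scores in each library were removed as doublets, leaving 11210, 3929, 5076 and 2899 cells with medians of 2926, 4233, 2555 and 3356 UMIs. A cell joined a class with at least 3 of its markers and 2 more than of any other. Rebuilt classes may differ from the study's. Raw UMIs were summed per class and library (28 sums of 7 classes) and tested with edgeR 4.0.16 (R 4.3.3; filterByExpr, TMM, glmQLFit, glmQLFTest), with the library as a block and a threshold of 0.05 after Benjamini-Hochberg adjustment. Sums needed 20 cells, but the mural-like sum of day 20, with 15, was kept because its comparison had been planned, and the alternative without it was added after seeing the data. Level intervals are exact Poisson and share intervals Clopper-Pearson (95%), and cover counting error only. Free RNA was read from droplets of 10 to 100 UMIs. Day ratios used 0.5 UMIs as a pseudocount. On simulated data for the TFC-like comparison (11519 genes), 67% of 2-fold and 93% of 4-fold changes were recovered, with 8 false calls. Each gene was drawn there with 1 mean share for all 28 sums and a dispersion of 0.05. No class or library differences were simulated beyond the planted changes, so these rates do not describe the measured data. DESeq2 1.42.0, other normalization, filters, limits and class rules, and leaving out each library, were alternatives. Named were the mitochondrial-encoded members, the tissue isoform pairs with subunit c, Cox8c and Cox7a2l, for each comparison the 3 other nuclear-encoded members with the largest and the 3 with the smallest called log2 fold change that kept direction in all 4 libraries, and the extremes of each pathway list in TFC-like cells. The other genes printed (Ndufs1, Sdha, H19, Atp5e, Uqcrb and Uqcrh in TFC-like cells, Ndufa3, Ndufa5, Ndufa9 and Atp5b between libraries) and the levels of Ndufa1 in C cells were added after their values were seen, as were the Cox6a2 splits. Some items the rule names are not reported here. The members and lists were chosen with earlier results of these data known. Nuclear copies of mitochondrial genes and pseudogenes make single members uncertain.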

Additional observations from a re-analysis of the deposited data

How the results depend on the processing

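Counts of members called stayed within 1.5 times the reported ones under the alternatives run, except as follows, with nuclear and mitochondrial for the encoding genome. Settings are no upper limit of UMIs, cells uncapped for mitochondrial UMIs or capped at 5%, thinned to 1000 UMIs, kept from 1000 UMIs or clustered, RLE in place of TMM, genes unfiltered for low counts, the fit unblocked (no library block), and the fit without the mural-like sum of day 20 (added after seeing the data). The shares of all genes called under the alternatives are not given here, so a changed count is not a result about the members alone. In TFC-like cells, the 2 nuclear ones lower became 4 with no upper limit and 1 thinned, and 1 to 3 without 1 library. The 7 mitochondrial ones higher became 13 uncapped, 0 at 5%, 0 thinned, 3 unfiltered, 4 unblocked and 4 without that sum, and 2 to 7 without 1 library. The 0 mitochondrial ones lower became 1 with no upper limit, and 0 without 1 library. In mural-like cells, the 33 nuclear ones higher became 7 at 5%, 20 thinned and 51 in DESeq2, and 18 to 34 without 1 library. The 3 nuclear ones lower became 1 unblocked, and 2 to 4 without 1 library. The 5 mitochondrial ones higher became 10 with no upper limit, 0 at 5%, 3 thinned, 8 with RLE, 3 unfiltered, 11 in DESeq2 and 2 unblocked, and 1 to 5 without 1 library. The 0 mitochondrial ones lower became 1 at 5% and 1 clustered, and 0 without 1 library. In macrophage-like cells, the 4 nuclear ones higher became 8 uncapped, 2 at 5% and 0 thinned, and 4 without 1 library. The 19 nuclear ones lower became 12 with no upper limit, 7 at 5%, 7 thinned, 11 unfiltered, 31 in DESeq2 and 6 unblocked, and 5 to 12 without 1 library. The 2 mitochondrial ones higher became 4 with no upper limit, 0 uncapped, 0 thinned, 1 with RLE, 0 unfiltered and 0 unblocked, and 0 to 2 without 1 library. The 1 mitochondrial one lower became 0 at 5% and 0 thinned, and 0 to 1 without 1 library. In T-like cells, the 13 nuclear ones higher became 26 with no upper limit, 8 unblocked and 20 without that sum, and 12 to 16 without 1 library. The 20 nuclear ones lower became 6 with no upper limit, 10 at 5%, 34 with RLE, 46 in DESeq2 and 8 unblocked, and 8 to 14 without 1 library. The 0 mitochondrial ones higher became 1 at 5%, 1 clustered and 1 without that sum, and 0 to 1 without 1 library. The 4 mitochondrial ones lower became 7 uncapped, 0 at 5%, 2 thinned, 7 with RLE, 9 in DESeq2 and 0 unblocked, and 0 to 4 without 1 library. The mean mitochondrial to nuclear ratio in TFC-like cells, 1.24, became 3.41 uncapped and 0.612 at 5%. The mean mitochondrial to nuclear ratio in mural-like cells, 1.87, became 2.71 uncapped. The log2 ratio of day 30 to 5 for the nuclear-encoded sum in TFC-like cells, -0.52, became -0.77 with no upper limit, -0.67 uncapped, -0.44 at 5%, -0.54 from 1000 UMIs, -0.56 with stricter markers, -0.48 clustered, -0.32 thinned, -0.015 for day 20 over 10 and -0.072 for day 30 over 10. The log2 ratio of day 30 to 5 for the mitochondrial-encoded sum in TFC-like cells, 0.16, became 0.46 with no upper limit, 1.15 uncapped, -0.50 at 5%, 0.20 from 1000 UMIs, 0.21 with doublets kept, 0.24 with stricter markers, 0.12 clustered, -0.32 thinned, 0.42 for day 20 over 10 and -0.052 for day 30 over 10. Uncapped, the log2 sign turned for mt-Nd6 (1.16) in TFC-like cells. At 5%, the log2 sign turned for mt-Nd1 (-0.28), mt-Co1 (-0.14), mt-Co3 (-0.14), mt-Nd4l (-0.065), mt-Nd4 (-0.14), mt-Nd5 (-0.16) and mt-Cytb (-0.10) in TFC-like cells, mt-Nd2 (-0.18), mt-Atp6 (-0.37), mt-Nd4 (-0.20), mt-Cytb (-0.12) and Cox7a2 (-0.028) in mural-like cells, the nuclear day ratio (-0.0013) in macrophage-like cells. In DESeq2, the log2 sign turned for mt-Co2 (-0.15) and mt-Co3 (-0.17) in T-like cells. For day 30 over 10, the log2 sign turned for the nuclear day ratio (0.052) in endothelial-like cells, the nuclear day ratio (0.43) in T-like cells, the nuclear day ratio (0.069) in B-like cells, the mitochondrial day ratio (-0.11) in mural-like cells. For day 20 over 10, the log2 sign turned for the nuclear day ratio (-0.36) in macrophage-like cells, the nuclear day ratio (0.20) in T-like cells. With no upper limit, the log2 sign turned for the nuclear day ratio (0.026) in T-like cells. Over the named genes in the 4 comparisons, 3259 values kept their direction and side of the threshold, 251 lost their call, 98 gained one and 15 changed sign. Classes were paired within each library by the library block. No paired analysis across ages was possible because each age had 1 library. The cause of these changes was not tested. Few cells limit mural-like values of day 20 (15 cells).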

Other observations

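Among the classes not fitted, neutrophil-like cells held 14334, 10047, 8511 and 9425 CPM of nuclear-encoded members in the libraries labelled day 5, 10, 20 and 30, below each fitted class, and 18220, 14992, 7313 and 8332 CPM of mitochondrial-encoded members. Schwann-like cells held 30881, 23064, 20673 and 23417 CPM of nuclear-encoded members. C cells had 1.000, 1.06, 0.810 and 0.571 mitochondrial-encoded UMIs per nuclear-encoded member UMI, with 33334, 33513, 27553 and 21230 CPM of mitochondrial-encoded members, and in day 10, 20 and 30 lay below the TFC-like ratio. With no upper limit of UMIs the C cell ratio was 0.910, 1.23, 1.81 and 1.38 and the mitochondrial-encoded level 28018, 33692, 44362 and 39176 CPM, and with no mitochondrial limit the ratio was 1.10, 1.10, 2.31 and 0.825. Among C cells 9.38%, 0%, 21.7% and 6.98% were over the mitochondrial limit.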
